A study of Mus musculus with 8 samples.

Results

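Fibrous collagens and fibroblast markers were followed as a group of 10 genes chosen by name: Col1a1, Col1a2, Col3a1, Col5a1, Col5a2, Fn1, Postn, Thy1, Pdgfra and Pdgfrb. All 10 were measured, among 22180 genes in all. The genes were read on microarrays of total RNA from primary articular chondrocytes, the cells of joint cartilage, which had been taken from the knees of wild-type ICR mice aged 5 days and grown as a monolayer with fetal bovine serum. Cells infected with an adenovirus that carries the zinc transporter ZIP8 (Ad-Zip8, 4 arrays) were compared with cells infected with a null adenovirus (Ad-null, 4 arrays), and RNA was taken 24 h after infection. Both groups therefore carried virus, and the model is one of forced expression in cultured cells. The series' design text calls the arrays biological replicates. Whether each culture had its own animals is not stated, and the p-values measure only the spread between these 8 samples, which may be partly technical.

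Collagens I, III and V build the striated fibres of skin, tendon and bone, whereas cartilage is built on collagen II. Chondrocytes kept in monolayer are known to drift towards a fibroblast-like state in which collagen II gives way to collagens I and III and to fibronectin, a change called dedifferentiation. Pdgfra and Pdgfrb encode the receptors for platelet-derived growth factors, which drive the growth and movement of mesenchymal cells, and Thy1 and Postn encode a surface protein and a matrix protein that are widely used as fibroblast markers.

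The 10 genes did not move in a single direction. Pdgfra was 1.81-fold higher with Ad-Zip8, while Pdgfrb was 1.33-fold, Col1a2 1.31-fold and Col5a1 1.18-fold lower, and the other 6 did not pass the test. Thus 1 of 10 rose and 3 of 10 fell at an adjusted p under 0.05 in limma, which fits a linear model with moderated variance across all genes, here adjusted by the Benjamini-Hochberg method. Over all genes tested 10.6% passed that test, 5.48% as higher and 5.12% as lower. The groups did not overlap for 4 of the 10 genes, against 17.6% of all genes. The median log2 change of the 10 genes was -0.04, against -0.02 over all genes. RNA came from whole cultures, so fewer cells of a type and less RNA per cell cannot be told apart.

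Values are given on the log2 scale of RMA, the method with which the authors summarised each probe set, and levels are not compared between genes because probe sets differ in brightness. Array medians lay between 5.04 and 5.11 and the highest value on any array was 13.8. None of the 10 genes had a mean below the array medians. The introduced gene Slc39a8, which encodes ZIP8, stood 30.4-fold above Ad-null in Ad-Zip8 cells (log2 change 4.93, SE 0.09, limma adjusted p = 3.49e-09). Across genes, arrays of the same group had correlations of 0.991 to 0.993, and those of different groups 0.979 to 0.986. Defining genes of the labelled cell type were measured well: all 14 chondrocyte markers examined had means above the array medians, from 7.86 for Sox5 to 13.3 for Col2a1.

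Promoter sequences are shown for the 3 genes that passed the test and have an entry in the RefSeq promoter table (build GRCm38.p6), and for Col3a1 as a fibrous collagen gene that did not pass. Each is the 250 bases before the table's start site, 5′ to 3′ on the coding strand. Capitals mark matches, on either strand, to a CCAAT box (CCAAT), a GC box (GGGCGG) or a TATA box (TATAAA). An AP-1 site (TGANTCA) and the core of the metal response element, TGCACNC or TGCGCNC, the element bound by the zinc-sensing factor MTF1, were searched for as well. No 2 matches overlapped in these 4 windows.
Col1a2 (chr6:4505368-4505617, + strand): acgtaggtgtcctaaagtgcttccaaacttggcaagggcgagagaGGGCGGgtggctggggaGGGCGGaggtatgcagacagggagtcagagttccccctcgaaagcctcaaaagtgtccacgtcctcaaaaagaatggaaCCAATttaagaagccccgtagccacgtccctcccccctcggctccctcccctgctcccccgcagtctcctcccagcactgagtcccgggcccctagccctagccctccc
Col5a1 (chr2:27886175-27886424, + strand): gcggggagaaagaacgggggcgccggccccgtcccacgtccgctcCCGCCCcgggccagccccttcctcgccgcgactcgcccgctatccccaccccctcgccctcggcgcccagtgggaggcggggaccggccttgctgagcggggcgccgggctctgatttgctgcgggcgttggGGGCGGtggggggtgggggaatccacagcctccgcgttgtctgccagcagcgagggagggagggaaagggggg
Pdgfra (chr5:75152001-75152250, + strand): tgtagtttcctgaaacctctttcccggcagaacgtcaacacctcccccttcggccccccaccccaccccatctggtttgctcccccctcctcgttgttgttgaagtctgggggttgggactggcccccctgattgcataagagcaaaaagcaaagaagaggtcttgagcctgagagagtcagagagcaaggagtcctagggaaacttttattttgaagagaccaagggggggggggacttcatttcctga
Col3a1 (chr1:45311288-45311537, + strand): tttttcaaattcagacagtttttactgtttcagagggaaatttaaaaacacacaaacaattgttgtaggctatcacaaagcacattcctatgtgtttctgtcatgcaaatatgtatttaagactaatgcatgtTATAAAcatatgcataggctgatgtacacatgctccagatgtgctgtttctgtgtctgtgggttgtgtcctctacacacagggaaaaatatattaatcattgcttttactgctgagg

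Of the 10 genes 5 had entries in that table, with 6 windows because Postn had 2. The Col1a2 window held 2 GC boxes and 1 CCAAT box, and the Col5a1 window held 2 GC boxes, 1 on each strand. GC boxes occurred in 32.7% of all 32851 windows of this length and CCAAT boxes in 33.8%. The Col3a1 window held a TATA box, present in 12.4% of windows, but it lay 117 to 112 bases before the start. The Pdgfra window held none of the 5 motifs, and RefSeq's gene record begins upstream of it, so other transcripts of the gene may cross it. None of the 4 windows held an AP-1 site or a metal response element core, which occurred in 6.75% and 21.4% of all windows. Base composition differed: G and C made up 62% of the Col1a2 window, 76.4% of Col5a1, 54.4% of Pdgfra and 35.2% of Col3a1, against a median of 52.4% over all windows. A match or its absence describes these letters only.

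Among the 5 fibrous collagen chain genes, Col1a2 and Col5a1 fell and the other 3 did not pass. Col1a1 and Col1a2 encode the alpha 1 and alpha 2 chains that assemble into collagen I. Col1a2 had values of 10.16, 10.02, 9.85 and 10.05 in Ad-Zip8 replicates 1 to 4, against 10.48, 10.45, 10.24 and 10.44 in Ad-null replicates 1 to 4. Every Ad-Zip8 array lay below every Ad-null array. The fall was 0.38 on the log2 scale (-0.38, SE 0.09, limma adjusted p = 0.0218), and the same-numbered arrays differed by -0.32 to -0.43. A dimmer probe set of Col1a2 was lower too, at 6.82 to 6.91 with Ad-Zip8 against 6.99 to 7.39 with Ad-null, without overlap, although it did not pass when all probe sets were tested (limma adjusted p = 0.249). The Col1a2 call was a narrow one. It was lost without Ad-null replicate 1 (limma adjusted p = 0.0627), 2 (0.0601) or 4 (0.0616), without Ad-Zip8 replicate 2 (0.0538) or 3 (0.0523), and with repeated quantile normalization (0.0580).

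Col1a1 had values of 11.19, 11.13, 10.75 and 10.77 in Ad-Zip8 replicates 1 to 4, against 11.22, 11.24, 10.80 and 10.81 in Ad-null replicates 1 to 4. The groups overlapped almost fully, and in each group replicates 1 and 2 lay above replicates 3 and 4. Its log2 change was -0.06 with a 95% confidence interval of -0.38 to 0.27 (limma adjusted p = 0.869). With the replicate number as a block the interval narrowed to -0.21 to 0.09 (adjusted p = 0.630), and the same-numbered differences ran from -0.11 to -0.03. Col3a1, the gene of the collagen III chain, also overlapped between the groups. It had values of 9.52, 9.53, 9.25 and 9.43 with Ad-Zip8, against 9.62, 9.66, 9.30 and 9.45 with Ad-null. Its change was -0.07 (95% interval -0.30 to 0.16, limma adjusted p = 0.746), or -0.23 to 0.08 with the block.

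**Figure D1:**
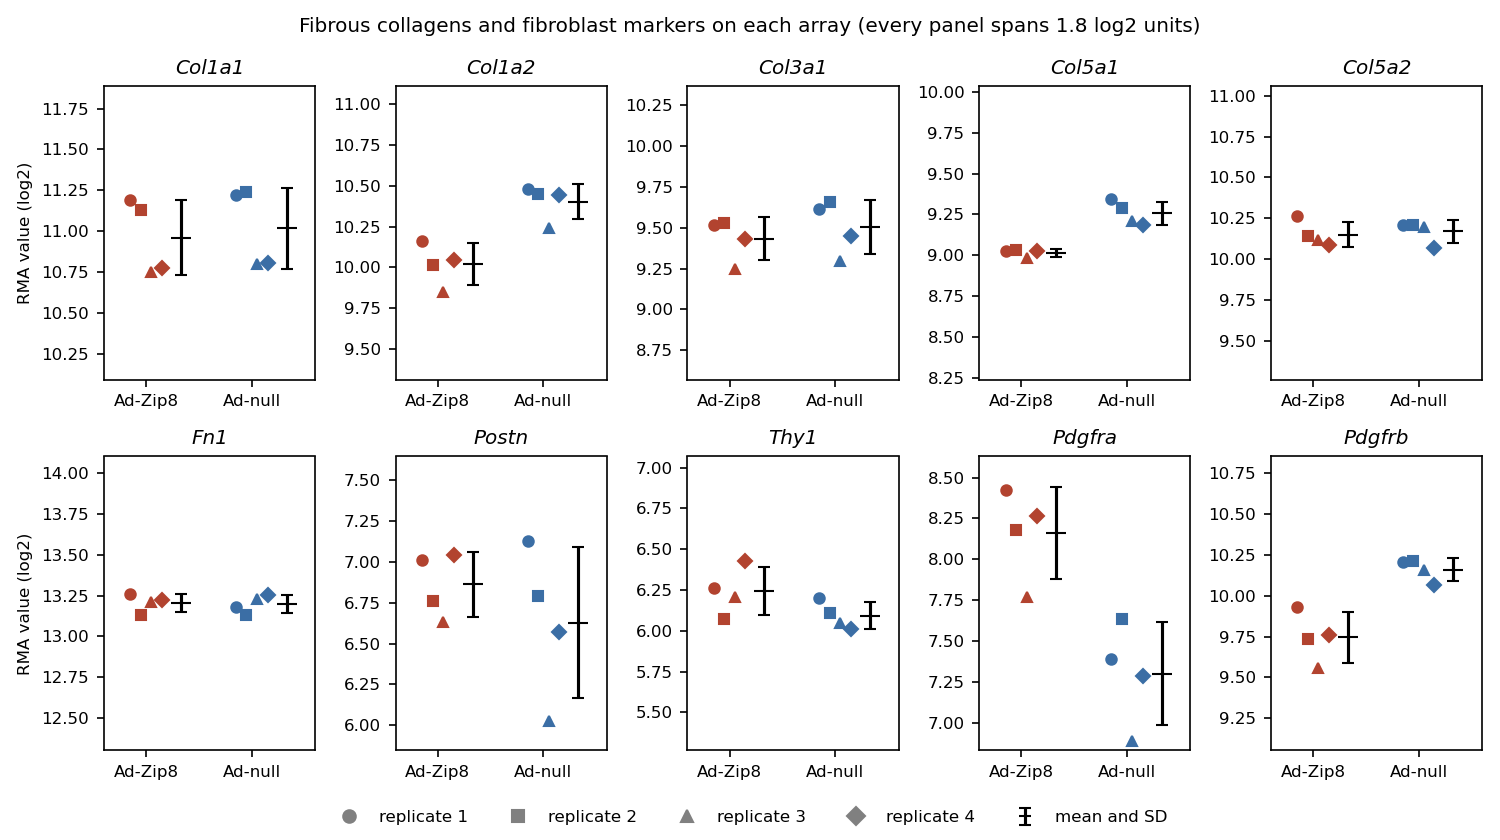
RMA value on the log2 scale of each of the 10 genes on every array, Ad-Zip8 (red) left of Ad-null (blue). Marker shape gives the replicate number, and the black bar gives the group mean with its SD (n = 4). Groups are apart for Col1a2, Col5a1, Pdgfra and Pdgfrb and overlap for the other 6 genes.

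Collagen V, a minor fibre collagen that starts and limits the growth of collagen I fibrils, has chains encoded by Col5a1 and Col5a2 among the 10 genes. Col5a1 had values of 9.02, 9.03, 8.98 and 9.03 in the Ad-Zip8 replicates and 9.34, 9.29, 9.21 and 9.19 in the Ad-null replicates. The groups did not overlap, and the log2 change was -0.24 (SE 0.07, limma adjusted p = 0.0465). This was the weakest of the 4 calls. It was lost in each of the 8 fits that left out 1 array (limma adjusted p from 0.0659 to 0.117), with the replicate block (0.0705) and with arrays centred on their medians (0.0981). A second, dim Col5a1 probe set lay at 5.28 to 5.54 with Ad-Zip8 and 5.18 to 5.70 with Ad-null, so those groups overlapped. Col5a2, which encodes the alpha 2 chain, lay between 10.08 and 10.26 with Ad-Zip8 and between 10.06 and 10.21 with Ad-null. Its log2 change was -0.02 (95% interval -0.18 to 0.14, limma adjusted p = 0.913).

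Whether chains of 1 type changed unequally was tested on the within-array difference between 2 genes, with an exact two-sided permutation test over the 8 arrays. The size of such a difference reflects the probes, so only its shift between groups is read. A total of 5 gene pairs were compared, and the smallest p the design allows is 0.0286. After adjustment no pair could pass unless at least 3 of the 5 reached that p, so even complete separation of the groups in 1 or 2 pairs could not. The Col1a1 minus Col1a2 difference averaged 0.94 ± 0.17 in Ad-Zip8 cells and 0.61 ± 0.19 in Ad-null cells (SD, n = 4 each), a shift of 0.33 (exact p = 0.0857, adjusted p = 0.143). This test takes no account of the replicate numbers, and between same-numbered arrays the shift was 0.28, 0.32, 0.34 and 0.36, positive in 4 of 4. The Col5a1 minus Col5a2 difference averaged -1.13 ± 0.08 with Ad-Zip8 and -0.91 ± 0.05 with Ad-null (SD, n = 4 each), a shift of -0.22 (exact p = 0.0286, adjusted p = 0.0714). The groups did not overlap, and the same-numbered shifts, -0.37 to -0.15, were negative in 4 of 4. With 4 pairs of arrays an exact test of the same-numbered shifts cannot go below p = 0.125. The adjusted values therefore do not settle whether the chains changed unequally.

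The fibrous collagens were set against Col2a1, which encodes the collagen II chain, because dedifferentiation is read from that balance. The Col1a1 minus Col2a1 difference was -2.28 ± 0.28 with Ad-Zip8 and -2.44 ± 0.24 with Ad-null (SD, n = 4 each), a shift of 0.16 (exact permutation p = 0.400, adjusted p = 0.400). The Col3a1 minus Col2a1 difference was -3.81 ± 0.16 with Ad-Zip8 and -3.96 ± 0.16 with Ad-null, a shift of 0.15 (exact permutation p = 0.200, adjusted p = 0.250). Groups overlapped in both, although the same-numbered shifts were positive in 4 of 4, at 0.02 to 0.34 for Col1a1 and 0.009 to 0.28 for Col3a1. Col2a1 itself had a log2 change of -0.22 (limma adjusted p = 0.0790). Its values lay near the top of the scale, where differences can be compressed, which was not tested here. Col2a1 passed in the fit limited to brighter genes (limma adjusted p = 0.0206) and in the one with a variance trend (0.00244). Among the 14 chondrocyte markers 10 fell, 0 rose and 4 (Col2a1, Sox9, Sox5 and Sox6) had no call, against 5.12% of all genes called lower. The median log2 change of the 14 was -0.49. For each of the 14, these 4 included, every Ad-Zip8 array lay below every Ad-null array. Groups did not overlap in either direction for 17.6% of all genes. The number that fell was 8 to 10 when 1 array was left out, and 14 in the fits limited to brighter genes or with a variance trend. Acan, the aggrecan gene, was at 12.42 to 12.71 with Ad-Zip8 and 13.07 to 13.17 with Ad-null, 1.46-fold lower (limma adjusted p = 0.00181). Matn1 (2.20-fold), Matn3, Col9a3 and Hapln1 encode further cartilage matrix proteins and fell as well.

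**Figure D2:**
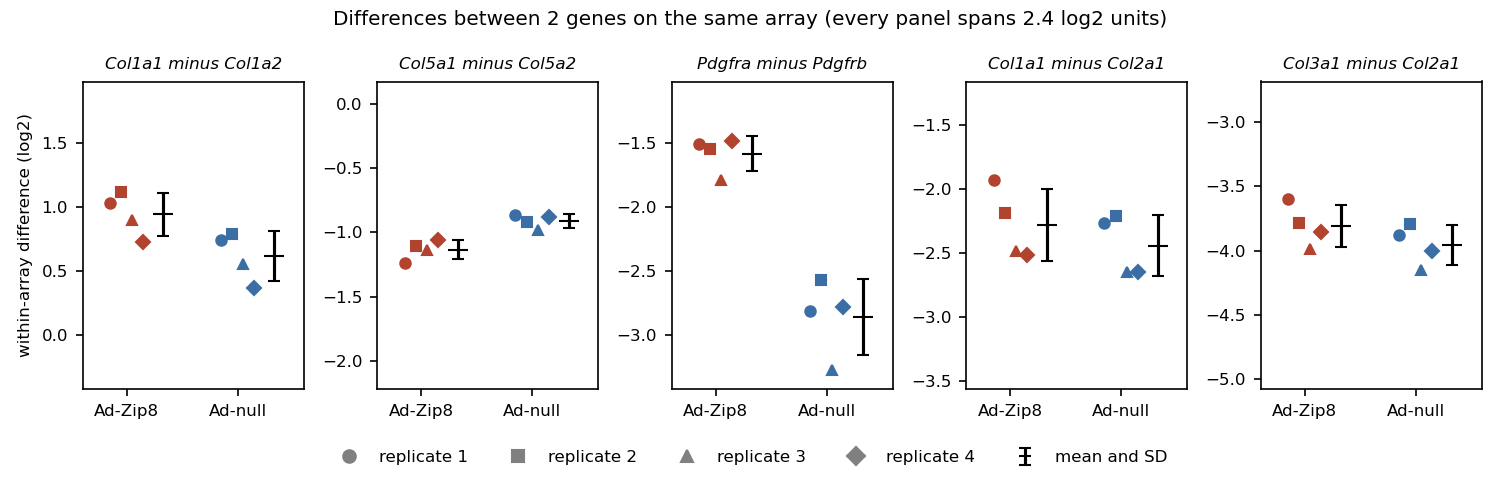
Within-array log2 difference between 2 genes for the 5 pairs tested, Ad-Zip8 (red) left of Ad-null (blue), with marker shape for the replicate number and black bars for mean and SD (n = 4). Groups are apart for Col5a1 minus Col5a2 and for Pdgfra minus Pdgfrb.

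**Figure D3:**
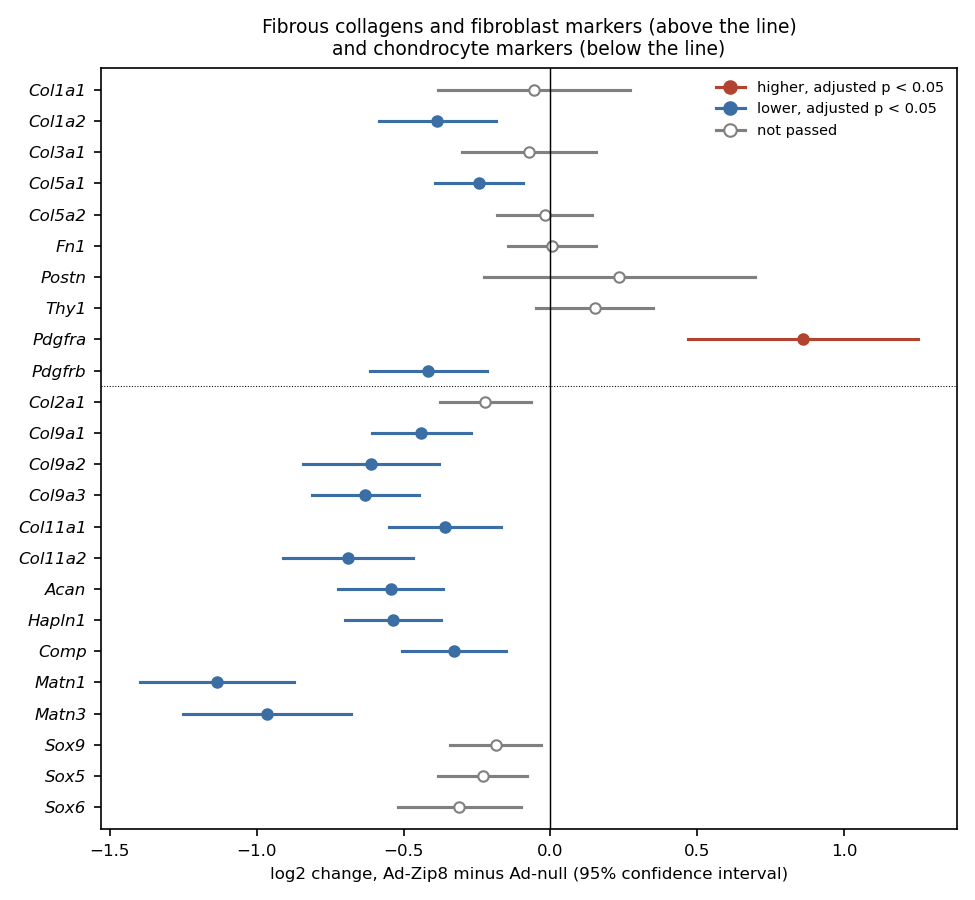
Log2 change, Ad-Zip8 minus Ad-null, with its 95% confidence interval from limma for the 10 fibrous collagen and fibroblast genes above the dotted line and the 14 chondrocyte markers below it. Filled points passed at an adjusted p under 0.05; 4 of the 10 and 10 of the 14 did.

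The platelet-derived growth factor receptors went opposite ways. Pdgfra, which encodes the alpha receptor and marks mesenchymal progenitors and fibroblasts, had values of 8.42, 8.18, 7.77 and 8.27 in Ad-Zip8 replicates 1 to 4, against 7.39, 7.64, 6.88 and 7.29 in Ad-null replicates 1 to 4. Every Ad-Zip8 array was above every Ad-null array. The log2 change was 0.86 (SE 0.18, 95% interval 0.47 to 1.25, limma adjusted p = 0.0114), the largest of the 10 in either direction, and it passed in all 8 fits that left out 1 array. Pdgfrb, which encodes the beta receptor and is best known from pericytes and other perivascular cells, had values of 9.93, 9.73, 9.56 and 9.76 with Ad-Zip8, against 10.21, 10.21, 10.16 and 10.06 with Ad-null. Again the groups did not overlap, here with the Ad-Zip8 arrays lower. The log2 change was -0.42 (SE 0.09, 95% interval -0.61 to -0.22, limma adjusted p = 0.0149), with adjusted p from 0.00943 to 0.0453 when 1 array was left out. With all probe sets in the adjustment both receptors still passed (limma adjusted p = 0.0378 for Pdgfra and 0.0453 for Pdgfrb).

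The Pdgfra minus Pdgfrb difference within an array averaged -1.59 ± 0.14 with Ad-Zip8 and -2.86 ± 0.30 with Ad-null (SD, n = 4 each). The shift of 1.28 was the largest of the 5 pairs, and every Ad-Zip8 array lay above every Ad-null array. Its exact permutation p was the smallest possible, 0.0286, with an adjusted p of 0.0714 over the 5 pairs, the lowest possible with only 2 of them at the smallest p. The same-numbered shifts were 1.02 to 1.48. Among the ligand genes, Pdgfc, which encodes a ligand of the alpha receptor, lay at 8.19 to 8.45 with Ad-Zip8 and 7.68 to 7.97 with Ad-null and rose 1.35-fold (log2 change 0.44, SE 0.09, limma adjusted p = 0.0151). The other 3 ligand genes and the receptor-like gene Pdgfrl did not pass. Pdgfd, named after its value was seen, had the largest log2 change of the list, 0.50 (limma adjusted p = 0.0842). Its groups did not overlap, nor did those of Pdgfrl. Pdgfb, named likewise, had a log2 change of 0.009. Pdgfa, another ligand of the alpha receptor, had a log2 change of -0.07 and Pdgfrl 0.14. The list of 5 thus held 1 higher and 0 lower genes with a median of 0.14, against 5.48% of all genes called higher and 5.12% lower.

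Markers of pericytes and smooth muscle were read beside Pdgfrb. Of 9 such genes 4 fell and 0 rose, against 5.12% of all genes called lower and 5.48% higher. The 4 were the calponin gene Cnn1 (2.41-fold lower), Acta2, the gene of smooth muscle actin (1.64-fold lower), Mcam (1.62-fold lower) and Cspg4 (1.47-fold lower). The mean over the 9 genes was 6.80 to 6.85 on the Ad-Zip8 arrays and 7.14 to 7.24 on the Ad-null arrays. The 5 that did not pass, named after their values were seen, were Rgs5 (log2 change 0.21), Abcc9 (0.09), Myh11 (-0.12), Kcnj8 (-0.19) and Des (-0.25). The part of such cells in the Pdgfrb result was not tested.

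Fn1, Postn and Thy1 did not pass. Fn1, which encodes fibronectin, an adhesion protein of provisional matrix, was at 13.13 to 13.26 in both groups, with a log2 change of 0.01 (95% interval -0.14 to 0.16, limma adjusted p = 0.975). That level is close to the top of the scale, where a difference could be compressed, which was not tested. Postn, the gene of periostin, a matrix protein of tendon, periosteum and wounds, had values of 7.01, 6.76, 6.63 and 7.04 with Ad-Zip8, against 7.13, 6.79, 6.02 and 6.57 with Ad-null. Same-numbered arrays differed by -0.12 and -0.03 in replicates 1 and 2 but by 0.61 and 0.47 in replicates 3 and 4. Its SD of 0.46 with Ad-null was the largest of the 10 genes, and its log2 change of 0.23 had an interval of -0.23 to 0.70 (limma adjusted p = 0.576). Thy1, the gene of the surface protein CD90, lay at 6.07 to 6.43 with Ad-Zip8 and 6.01 to 6.20 with Ad-null (log2 change 0.15, 95% interval -0.05 to 0.35, limma adjusted p = 0.376).

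**Figure D4:**
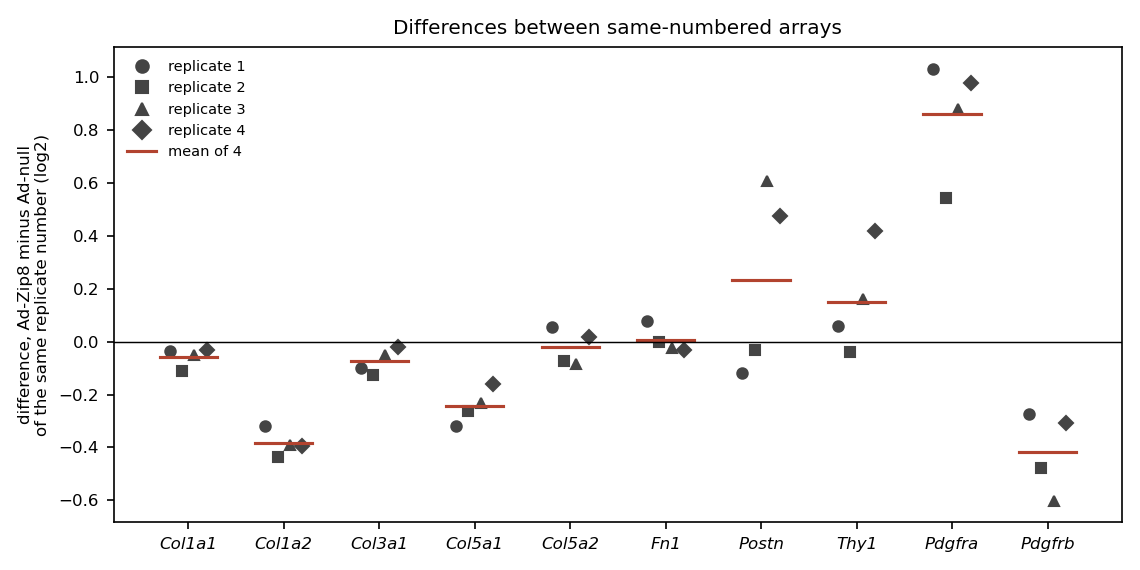
Log2 difference between the Ad-Zip8 and the Ad-null array of the same replicate number for each of the 10 genes, with marker shape for the number and a red line for the mean of 4. All 4 differences have 1 sign for Col1a1, Col1a2, Col3a1, Col5a1, Pdgfra and Pdgfrb, and the 4 of Postn run from -0.12 to 0.61.

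Replicate number and virus both showed in these values. For Col1a1, Col1a2, Col3a1, Postn and Pdgfra the lowest array of each group was replicate 3, which made 5 of the 10 genes, against 13.4% of all genes. The other 5 had their lowest arrays elsewhere: replicate 2 of both groups for Fn1, replicate 4 of both for Col5a2, and different numbers in the groups for Col5a1, Thy1 and Pdgfrb. The mean profile of the 5 collagen chain genes, each centred on its own mean, stood at 0.04, -0.02, -0.20 and -0.12 in Ad-Zip8 replicates 1 to 4, against 0.18, 0.18, -0.04 and -0.003 in Ad-null replicates 1 to 4. Replicates 1 and 2 were the higher ones in each group. The profile also averaged -0.08 with Ad-Zip8 and 0.08 with Ad-null, and same-numbered arrays differed by -0.20 to -0.12. Its genes did not share this difference equally. Col1a2 (-0.38) and Col5a1 (-0.24) had the largest log2 changes, and Col1a1, Col3a1 and Col5a2 lay at -0.07 to -0.02. The SD of this profile over the 8 arrays was 0.13. Among 5365 other genes with at least that SD and a mean above the median of all genes, with predicted genes and small RNAs left out, those whose centred values lay closest to it were Mmab, Slc25a22, Jagn1, Itgb5 and Hs6st1. Their root mean square difference from the profile was 0.03 to 0.04 over the 8 arrays. Since they were chosen to match a profile that differs between the groups, their own log2 changes, -0.13 to -0.17, follow from the choice.

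Collagen chains are hydroxylated, folded, trimmed and crosslinked by other proteins, whose genes were read as a list. Of 25 genes of hydroxylation, folding, propeptide removal and crosslinking, 10 fell and 1 rose, while 14 had no call, and the median log2 change was -0.13. Over all genes tested 5.12% were called lower and 5.48% higher. P4ha3, which encodes a catalytic subunit of prolyl 4-hydroxylase, had values of 8.35 to 8.85 with Ad-Zip8 and 9.54 to 9.69 with Ad-null (2.00-fold lower, log2 change -0.999, SE 0.10, limma adjusted p = 2.29e-04). Its relatives P4ha1 (log2 change -0.05, limma adjusted p = 0.795) and P4ha2 (0.27, limma adjusted p = 0.0841), named after their values were seen, did not pass. P3h2, the gene of a prolyl 3-hydroxylase, was at 9.63 to 9.80 against 10.28 to 10.61 (1.67-fold lower, limma adjusted p = 6.26e-04). Pcolce2, whose product enhances the removal of the C-terminal propeptide, was at 10.48 to 10.84 with Ad-Zip8 and 11.40 to 11.58 with Ad-null (1.65-fold lower, limma adjusted p = 0.00102). The other 7 that fell, named after their values were seen, were P3h1, P3h4, Crtap, Serpinh1, Adamts3, Adamts14 and Loxl3, with log2 changes of -0.28 to -0.81. Adamts3 and Adamts14 encode proteases that remove the N-terminal propeptide, and Serpinh1 encodes the collagen chaperone HSP47.

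Lox, the gene of lysyl oxidase, which crosslinks collagen and elastin, was the 1 gene of that list called as higher. It had values of 11.11, 10.60, 10.75 and 10.50 in the Ad-Zip8 replicates, against 9.97, 9.48, 9.60 and 9.31 in the Ad-null replicates. The groups did not overlap, and the rise was 2.22-fold (log2 change 1.15, SE 0.16, limma adjusted p = 0.00147). Its relative Loxl3, named after its value was seen, fell by 0.51 on the log2 scale (-0.51, limma adjusted p = 0.00845). Loxl1 and Loxl4, named likewise, did not pass. Loxl1 had a log2 change of 0.36 without overlap of the groups (limma adjusted p = 0.0594), and Loxl4 of -0.12. Leaving out 1 array gave 7 to 9 lower and 1 to 2 higher genes in the list, with 2 higher without Ad-null replicate 1. The list held 3 higher genes in the fits limited to brighter genes or with a variance trend, and 2 with repeated quantile normalization. The fall of Crtap was lost in each of the 8 fits without 1 array (limma adjusted p from 0.0507 to 0.102), that of Serpinh1 in 3 of them and that of P3h4 in 1.

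**Figure D5:**
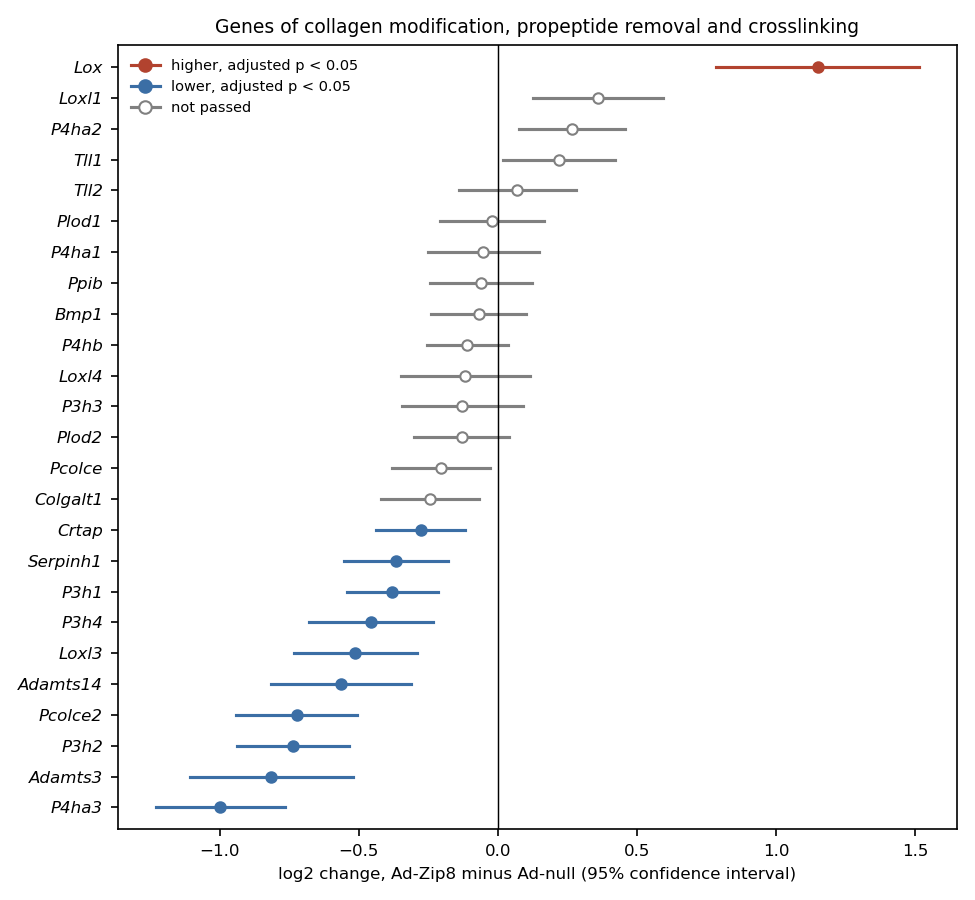
Log2 change, Ad-Zip8 minus Ad-null, with its 95% confidence interval from limma for 25 genes of collagen processing, ordered by size. Lox stands alone at 1.15, and the 10 genes that fell lie between -0.999 and -0.28.

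Other collagens outside cartilage were mostly without a call: 1 of 15 genes rose, 1 fell and 13 had no call, at a median log2 change of -0.11. Among all genes 5.48% were called higher and 5.12% lower. Col14a1, which encodes a collagen on the surface of fibres, was at 5.02 to 5.42 with Ad-Zip8 and 5.80 to 6.14 with Ad-null (1.61-fold lower, limma adjusted p = 0.00559). Col5a3, the third chain gene of collagen V, went the other way from Col5a1, at 6.89 to 7.32 with Ad-Zip8 and 6.63 to 6.84 with Ad-null (1.29-fold higher, limma adjusted p = 0.0426). The Col5a3 call was kept only without Ad-Zip8 replicate 3 (adjusted p = 0.0255) among the 8 fits that left out 1 array, and reached 0.0506 to 0.111 in the others.

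Matrix proteins that bind fibronectin or fibrous collagen, and proteins of elastic fibres, gave 5 lower and 2 higher genes of 17, with a median log2 change of -0.17. The shares over all genes were 5.12% lower and 5.48% higher. Tnc, the tenascin C gene, was at 7.80 to 8.33 with Ad-Zip8 and 9.01 to 9.32 with Ad-null (2.23-fold lower, limma adjusted p = 2.12e-04). Tgfbi, whose product links collagens to integrins, was 1.67-fold lower, the elastic fibre gene Fbln5 1.62-fold and the microfibril gene Mfap2 1.37-fold, and Mfap4, named after its value was seen, had a log2 change of -0.59 (limma adjusted p = 0.00478). The 2 higher genes, also named after their values were seen, were Fbn2 (1.43-fold) and Fbln1 (1.32-fold). Each of the 8 fits without 1 array kept 0 or 1 of the rises: 1 was left when replicate 2 or 3 of Ad-Zip8 was dropped or replicate 1 or 4 of Ad-null, and 0 otherwise.

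Further fibroblast markers gave 4 of 15 higher, 1 lower and 10 without a call, against 5.48% of all genes called higher and 5.12% lower. Log2 changes were positive for 10 of the 15 and negative for 5, the median being 0.10. Fgf7, which encodes a growth factor that mesenchymal cells send to epithelium, had values of 8.95, 8.53, 8.57 and 8.34 with Ad-Zip8, against 6.41, 6.25, 5.72 and 6.15 with Ad-null. The groups were far apart, and the rise was 5.52-fold (log2 change 2.46, SE 0.16, limma adjusted p = 1.7e-05). S100a4, a calcium-binding protein gene also called fibroblast-specific protein, rose 2.13-fold (limma adjusted p = 0.00511). Mmp2, the gene of a gelatinase, rose 1.59-fold (limma adjusted p = 8.59e-04). The fourth, Fap, named after its value was seen, encodes fibroblast activation protein and rose 1.68-fold (limma adjusted p = 0.0254). Fgf7, S100a4 and Mmp2 passed in all 8 fits without 1 array, whereas Fap passed in 4. The Fap call was lost without Ad-null replicate 2 or without replicate 1, 3 or 4 of Ad-Zip8, with adjusted p up to 0.0781. Cthrc1, a secreted protein gene of matrix-producing fibroblasts, was the 1 that fell (1.65-fold, limma adjusted p = 0.00140). Uncalled genes, named after their values were seen, included Dpt (log2 change -0.93, limma adjusted p = 0.139) and Cd34 (0.69, limma adjusted p = 0.0878). Vim, named likewise and also uncalled, had a log2 change of -0.19 without overlap of the groups. Leaving out 1 array gave 3 to 4 higher and 1 to 2 lower genes, with 2 lower without Ad-null replicate 3, and the replicate block gave 5 higher and 2 lower.

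Transcription factor genes of mesenchymal cells gave 1 higher and 1 lower of 10, against 5.48% and 5.12% of all genes. Their median log2 change was 0.03. Zeb1 was at 6.60 to 6.85 with Ad-Zip8 and 6.01 to 6.26 with Ad-null (1.48-fold higher, limma adjusted p = 0.00233). Snai1, which like Zeb1 represses epithelial genes, was at 6.51 to 6.93 with Ad-Zip8 and 7.22 to 7.50 with Ad-null (1.55-fold lower, limma adjusted p = 0.00313). In the main fit Meox1, named after its value was seen, had a log2 change of -0.67 with overlapping groups and did not pass (limma adjusted p = 0.0509). Beside Snai1, a second gene of this list fell with the replicate block and without Ad-null replicate 3.

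Markers of other cell types that such a culture could hold were read beside these results. For all the lists below, the shares over all genes were 5.48% called higher and 5.12% lower. Of 6 osteoblast genes, Sp7 (1.73-fold) and Alpl (1.52-fold) fell, Ibsp rose (1.49-fold) and 3 did not pass, and the list mean was 5.22 to 5.54 on Ad-Zip8 arrays and 5.22 to 5.52 on Ad-null arrays. Of 5 tendon cell genes, Mkx fell (2.17-fold, limma adjusted p = 3.48e-04) and 4 did not pass. These 4 were Scx (log2 change 0.26), Fmod (-0.16) and, named after their values were seen, Tnmd (-0.61) and Kera (-0.17, without overlap). The mean of the tendon list was 6.79 to 6.89 with Ad-Zip8 and 6.91 to 7.39 with Ad-null. Without Ad-null replicate 3, 2 tendon cell genes fell. Of 7 skeletal muscle genes 1 fell, Acta1 (1.42-fold, limma adjusted p = 0.0410), which among the 8 fits with 1 array left out passed in 1, the fit lacking Ad-Zip8 replicate 2 (adjusted p = 0.0153), and reached 0.0556 to 0.111 in the rest. Tnnt3 (log2 change -0.08) and Myog (-0.20) were among the 6 that did not pass, and that list's mean was 5.21 to 5.38 with Ad-Zip8 and 5.44 to 5.51 with Ad-null. Endothelial markers gave 0 calls of 8 in limma, with Pecam1 at -0.05 and Kdr at 0.04 on the log2 scale; 6 of the 8 had means below the array medians, and no member of the list had an unadjusted p under 0.05. Their mean was 4.63 to 4.74 with Ad-Zip8 and 4.55 to 4.65 with Ad-null. Of 10 macrophage markers Cd14 (2.63-fold) and Cd68 (1.78-fold) rose and Laptm5 fell (1.65-fold), 5 of the 10 had means below the array medians, and the list mean was 5.08 to 5.20 with Ad-Zip8 and 4.98 to 5.02 with Ad-null. The higher macrophage mean was not a shared rise: log2 changes were negative for 6 of the 10 and positive for 4, median -0.07. Cd14 stood at 1.39 and Cd68 at 0.83. The uncalled genes, named after their values were seen, all overlapped between the groups. Adgre1 and Lyz2 were at 0.10, and Csf1r, Itgam, Ptprc, Tyrobp and Fcer1g at -0.17 to -0.05. The part of all these cell types in the collagen and receptor results was not tested.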

How the data were processed

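Each of 8 RNA samples was copied into sense cDNA, biotin-labelled with a whole-transcript kit and hybridised to 1 array, per the labels' protocols. The deposited log2 values came from RMA according to the submitters' processing notes, a method in which background is corrected, arrays are forced to a common distribution and probe sets are summarised. The version of RMA and the array's genome build are not stated. This scale can compress differences at both ends, and precision is limited by having 4 arrays a group.

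The platform annotation gave 1 symbol for 23521 of 41345 probe sets and several for 1814, and did not list 16010. The RefSeq gene table held 23328 of the 23521 identifiers. The probe set with the highest mean was kept per gene, which left 22180 genes. Listed genes with no such probe set, Plod3, Fkbp10, Adamts2, Loxl2, Spp1, Fbn1, Efemp2, Ly6a, Zeb2, Bglap2 and Runx2, were not analysed here. Each value column could be matched to a sample.

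The comparison of the viruses used lmFit and eBayes of limma 3.58.1 (R 4.3.3), two-sided, with no covariate or filter. Benjamini-Hochberg adjustment ran over the 22180 genes, with a threshold of 0.05. Changes are Ad-Zip8 minus Ad-null, and SE is the moderated standard error. The fit was checked on simulated data with noise independent between arrays, so the check did not cover the likeness of same-numbered arrays. Motifs were counted in Python 3.11.15, and figures were drawn with matplotlib 3.10.9.

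The 10 genes, the other lists and the tests were chosen with earlier results of these data known. Beside the 10 genes, the text names up to 4 called genes per list with the smallest adjusted p, the 2 brightest where fewer than 2 were called, Col2a1, Acan and Sox9, and the 5 genes most alike. Deviations from group means correlated at 0.11 to 0.37 between same-numbered arrays and at -0.27 to 0.16 between others, and for 7 of 8 arrays the best match was the same number. The numbers were therefore taken to pair the samples, a pairing inferred from the data. Alternatives were another normalization, median centring, a filter on dim genes, a variance trend, a replicate block, the mean of probe sets, all probe sets, exact tests of single genes, and each array left out.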

Additional observations from a re-analysis of the deposited data

Results flagged for a closer look

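In 118 groups of 4 arrays, those of the genes named, 8 held 1 array far from the other 3, where chance flags about 1 group in 20. Among the fibrous collagens, Col1a2 in Ad-null replicate 3 was low at 10.24 against 10.44 to 10.48, Col5a1 in Ad-Zip8 replicate 3 was low at 8.98 against 9.02 to 9.03, and Col5a2 in Ad-null replicate 4 was low at 10.06 against 10.20 to 10.21. Col14a1 in Ad-null replicate 2 was high at 6.14 against 5.80 to 5.83, and Pcolce2 in Ad-Zip8 replicate 1 was low at 10.48 against 10.81 to 10.84. Pdgfc in Ad-null replicate 3 was low at 7.68 against 7.96 to 7.97, and Cd14 in the same array was low at 5.12 against 5.47 to 5.51. Col2a1 in Ad-null replicate 1 was high at 13.49 against 13.449 to 13.451.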

How the results depend on the processing

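Pdgfra was the 1 higher gene of the 10 under each alternative run. The count of lower genes was 3 in the main fit, with dim genes left out and with the variance trend. It was 2 with arrays centred on their medians, with the mean of probe sets and with the replicate block. It was 1 with repeated quantile normalization, 1 with all probe sets tested and 1 to 2 when 1 array was left out. Under repeated quantile normalization Col1a2 (adjusted p = 0.0580) and Col5a1 (0.0906) were lost, and with all probe sets tested Col1a2 (0.0618), Col5a1 (0.110), Col5a3 (0.107) and Acta1 (0.104). Averaging the probe sets of a gene took the log2 change of Col5a1 to -0.14 (adjusted p = 0.295). With the replicate block 2337 genes were called against 2352 without it, and 1 of the 10 genes was higher and 2 lower; apart from Col5a1 it changed no call among the genes named by the rule. Leaving out 1 array gave 1632 to 1993 called genes. Among the genes named by the rule, changes of sign occurred only in uncalled ones: Col5a2 was at 0.028 with repeated quantile normalization, and with 1 array left out Col1a1 ran from -0.13 to 0.018, Col5a2 from -0.057 to 0.0021, Fn1 from -0.018 to 0.031 and Kdr from -0.022 to 0.085. Sox9 (log2 change -0.19, adjusted p = 0.137) passed in the fit limited to brighter genes (0.0431) and with the variance trend (0.0125). That filter removed Col14a1, Mkx, Pecam1 and Kdr, which have no value there. The shifts between 2 genes kept their direction in each setting run. Their adjusted p-values say nothing of stability, since the smallest p was 0.0286, or 0.125 with the block, over 5 pairs. Signal near background limits Col14a1, Mkx and the endothelial list, and signal near the top may limit Fn1 and Col2a1.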
